A study of Mus musculus with 7 samples.

Results

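Cells make cholesterol and fatty acids from the same cytosolic acetyl-CoA, and the 33 genes described here encode the enzymes of both routes and the SREBP system that sets their transcription. They were the rows of the count table whose symbols are on a list of sterol and fatty acid synthesis genes, 33 of 23329 symbols. The list holds 16 enzymes of the sterol branch, 11 of the fatty acid branch, and 6 genes of SREBP control and sterol transport. RNA came from Beta-TC6 cells, a line established from a mouse insulinoma and so 1 tumour source rather than primary islet cells. All 7 libraries were wild type and received a 1 h pulse of 10 µM forskolin, which raises cAMP and synchronises the cells, and grew in medium with 15% serum; 3 were treated with IL1B (the cytokine interleukin-1 beta) and 4 with vehicle. The sources used here do not give the dose and duration of IL1B or the time of harvest.

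SREBPs are transcription factors made as precursors in the endoplasmic reticulum membrane. When sterols are low, the escort protein SCAP carries them to the Golgi, where proteases release the active part. When sterols are high, the INSIG proteins hold SCAP back. SREBP2, from Srebf2, mainly drives sterol synthesis and uptake, and SREBP1, from Srebf1, mainly drives fatty acid synthesis. Beta cells use lipid synthesis to handle excess glucose carbon, and membrane cholesterol bears on insulin granule release. RNA levels do not report SREBP cleavage.

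Libraries held 5335607 to 7513934 counts, and every member had at least 125 counts in every library, so all 33 passed the filter on low counts in both groups. The IL1B label held in the response genes Nfkbia, from 31.1 ± 1.49 to 479 ± 18.4 CPM (SD, n = 4 and 3), Tnfaip3, 17.7-fold higher, and Icam1, from 0.288 ± 0.185 to 103 ± 10.5 CPM. CPM here are depth-scaled counts, relative to the counts in tested genes after TMM scaling. The 10 beta-cell markers were all expressed, with summed levels of 34505 to 40142 CPM in vehicle and 38340 to 39762 with IL1B; of these, Pdx1 and Mafa were lower with IL1B past the threshold. The 7 leukocyte markers summed to 2.60 to 4.54 CPM in vehicle and 3.54 to 5.10 with IL1B, and the 6 stromal and endothelial markers to 4.07 to 6.35 and 5.10 to 6.48. Among the latter Pecam1, which failed the filter on low counts, was at 0.665 ± 0.141 CPM in vehicle and 2.18 ± 0.654 with IL1B. In the mean Col1a1, Pdgfrb and Kdr were also higher with IL1B, and Col1a2 and Col3a1 lower. The 6 exocrine and duct markers summed to 18.9 to 23.6 and 20.1 to 21.8 CPM, with Cpa1 and Prss2 at 0 throughout. Of 6 hepatocyte and adipocyte markers only Ttr, also made by islet cells, exceeded 1 CPM in the mean over all 7 libraries. The second vehicle library stood apart: its deviation from the vehicle mean fell with transcript length (Spearman rho over genes -0.54, against 0.211 to 0.297 in the other vehicle libraries). For the second IL1B library, taken against the IL1B mean, rho was 0.012. In bulk RNA, fewer expressing cells and less RNA per cell cannot be told apart.

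IL1B raised 3 of the 33 genes, each by less than 1.5-fold: Srebf2, the cytosolic malic enzyme gene Me1, and Hmgcs1, which encodes the synthase at the start of the mevalonate route. None fell past the threshold, a Benjamini-Hochberg adjusted p of 0.05 over all 12480 genes tested with edgeR's quasi-likelihood test; at an unadjusted p under 0.05, 5 of the 33 were higher and 5 lower, where 13.0% of all genes were higher and 9.62% lower. Of all genes tested, 7.76% rose and 3.25% fell, so 3 of 33 higher (9.09%) was near the background. DESeq2 and limma-voom each called the same 3 higher, where 5.84% and 7.69% of all genes were called higher, and added Acly as lower, where 1.87% and 3.09% were called lower. The count of falling members moved with the libraries used. It was 4 without the second vehicle library, where 589 of all 12405 genes tested fell. With the second library left out of both groups it was 6, where 676 of 12508 fell. With all 7 libraries 406 of 12480 fell. The second libraries share a number in the count table and are not known to be a pair. For Acaca, Fasn, Scd2 and Srebf1 they held the lowest vehicle and highest IL1B value, so leaving both out widens the difference by construction. The 95% interval of every member's fold change, from log2 -0.49 to 0.56 at the outermost, lay within 1.5-fold in either direction.

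**Figure D1:**
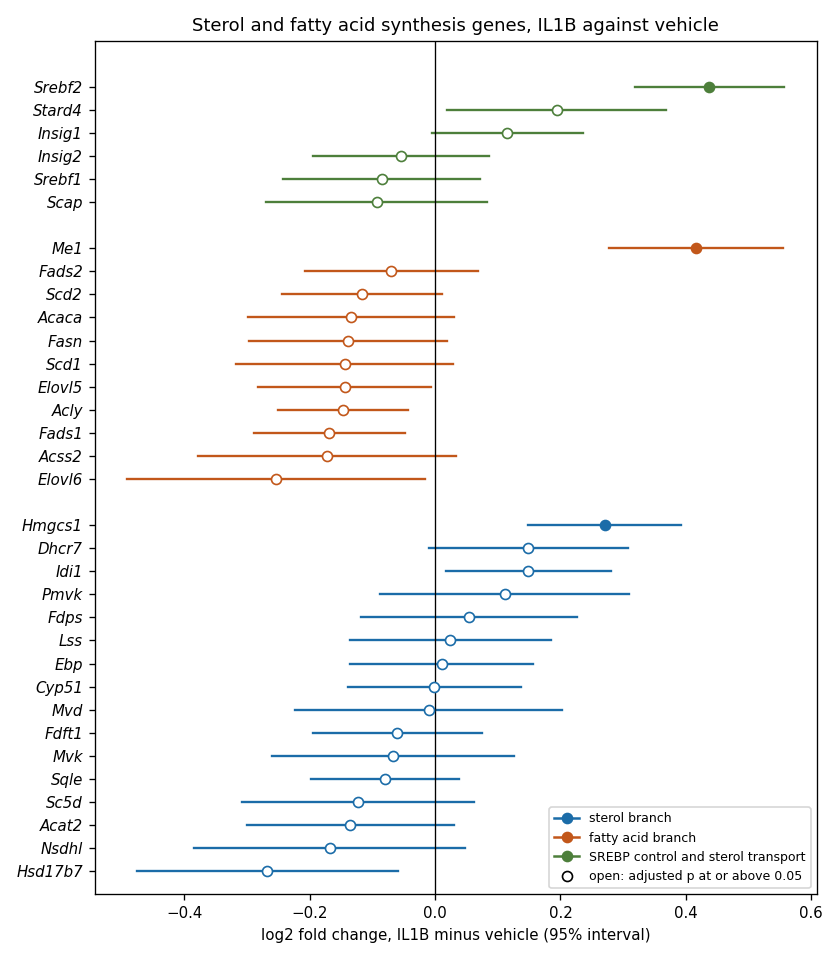
Log2 fold change of each of the 33 genes (IL1B minus vehicle, x axis) with its 95% interval; filled circles passed the adjusted p of 0.05. In the fatty acid branch 10 of 11 points lie below 0 and Me1 lies at 0.42, while the sterol branch is spread on both sides of 0.

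The promoters of the 3 genes that rose are shown beside those of Srebf1 and Fasn, which did not pass, because the SREBP system acts through short DNA elements near gene starts. Each is the 250 bases before the RefSeq start (GRCm38.p6, the outermost start where there are several), 5′ to 3′ on the gene's strand. Capitals mark matches on either strand to the sterol regulatory element as TCACNCCAC, the E-box CACGTG, the NF-Y box CCAAT, the Sp1 box GGGCGG, or the kB motif to which NF-kB binds.
Srebf2 (chr15:82147019-82147268, plus strand): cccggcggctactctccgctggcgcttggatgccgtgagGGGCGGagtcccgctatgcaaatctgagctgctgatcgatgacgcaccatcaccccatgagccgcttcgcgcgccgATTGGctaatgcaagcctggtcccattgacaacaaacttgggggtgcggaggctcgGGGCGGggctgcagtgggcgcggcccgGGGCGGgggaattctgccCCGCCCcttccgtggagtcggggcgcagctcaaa
Hmgcs1 (chr13:119690101-119690350, plus strand): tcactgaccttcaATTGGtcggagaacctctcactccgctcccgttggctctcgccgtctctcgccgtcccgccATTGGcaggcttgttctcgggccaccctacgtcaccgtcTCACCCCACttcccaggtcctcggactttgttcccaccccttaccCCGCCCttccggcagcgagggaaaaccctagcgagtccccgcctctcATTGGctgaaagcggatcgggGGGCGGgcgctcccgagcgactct
Me1 (chr9:86695915-86696164, minus strand): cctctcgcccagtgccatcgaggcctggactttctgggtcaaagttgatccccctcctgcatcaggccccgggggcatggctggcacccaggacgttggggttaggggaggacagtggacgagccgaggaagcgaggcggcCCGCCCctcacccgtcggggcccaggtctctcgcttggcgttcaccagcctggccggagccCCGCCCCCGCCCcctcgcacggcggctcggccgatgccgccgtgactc
Srebf1 (chr11:60222582-60222831, minus strand): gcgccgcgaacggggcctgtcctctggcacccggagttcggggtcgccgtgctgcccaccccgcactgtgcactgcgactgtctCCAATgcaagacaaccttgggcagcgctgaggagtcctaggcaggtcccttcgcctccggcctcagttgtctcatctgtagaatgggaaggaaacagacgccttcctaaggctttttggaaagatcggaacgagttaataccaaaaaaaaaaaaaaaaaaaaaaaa
Fasn (chr11:120824548-120824797, minus strand): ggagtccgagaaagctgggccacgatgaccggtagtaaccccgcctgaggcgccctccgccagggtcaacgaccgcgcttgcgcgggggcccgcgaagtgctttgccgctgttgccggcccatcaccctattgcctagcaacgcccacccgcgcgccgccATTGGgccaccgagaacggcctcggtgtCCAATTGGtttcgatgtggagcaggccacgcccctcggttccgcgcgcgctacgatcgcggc
Hmgcs1 held 1 sterol regulatory element, TCACCCCAC, starting 137 bases before the start, with 3 NF-Y boxes and 2 Sp1 boxes. Srebf2 held 4 Sp1 boxes and 1 NF-Y box, and Me1 3 Sp1 boxes. Srebf1 held 1 NF-Y box, and Fasn 3, of which 2 overlap as CCAATTGG. None of these 5 windows held the kB motif, which says only that those letters are not in these windows. Srebf1 has 3 windows and Me1 has 2, of which 1 each is shown. At another start Srebf1 had an Sp1 box, and at its other start Me1 had an NF-Y box.

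RefSeq windows were matched for 26 of the 33 genes, 35 windows in all. Fads1, Scd1, Scd2, Fdft1, Fdps, Sqle and Stard4 had no window and were not searched. The strict sterol element was in the Hmgcs1 window alone (2.86% of member windows, against 1.05% of all 32851). Letters that differ from it, such as TCACCCCAT in the Srebf2 window, were not counted. The NF-Y box was in 60.0% of member windows against 33.8% of all, and the Sp1 box in 68.6% against 32.7%. In the sterol branch these shares were 75.0% and 81.2% of 16 windows, and in the fatty acid branch 44.4% and 44.4% of 9. The E-box, which both SREBPs and the clock factors CLOCK and BMAL bind, was in 17.1% of member windows against 6.02% of all: those of Dhcr7, Elovl5, Hsd17b7, Insig1, Sc5d and Scap. The kB motif was in 17.1% against 7.25%, in windows of Ebp, Fads2, Insig2, Mvk and Pmvk and at another start of Srebf1. None of these 6 genes was among the 3 that rose. Matches are descriptions of letters and not binding sites. The windows of all genes were not matched to those of the members for expression or GC content.

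Before treatment the genes spanned a wide range of levels. Divided by the length of the longest annotated transcript, vehicle levels ran from 5.98 ± 1.04 CPM per kb for Elovl6, which elongates palmitate, to 461 ± 12.4 for Acly, which cleaves citrate to cytosolic acetyl-CoA (SD, n = 4). In the fatty acid branch Acly was followed by the desaturases Scd2 (157 ± 12.3 CPM per kb) and Fads1 (114 ± 4.93). Scd1, which shares its reaction with Scd2 and lies beside it on chromosome 19, was at 10.9 ± 0.898. Acaca, whose product malonyl-CoA is the building block of fatty acids, was at 7.32 ± 0.617, and Fasn, which assembles palmitate, at 31.5 ± 3.43.

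In the sterol branch Cyp51, which demethylates lanosterol, was highest at 82.4 ± 2.94 CPM per kb. Fdps, Ebp and Hmgcs1 followed at 61.7 ± 7.26, 56.6 ± 2.43 and 54.0 ± 1.95, neighbours that differed by less than the sum of their SDs. Hsd17b7, a reductase of the later demethylation steps, was lowest at 7.0 ± 0.731. Among the control genes Insig1 stood at 101 ± 4.50 CPM per kb, Insig2 at 34.2 ± 1.67, Srebf1 at 31.1 ± 2.24, Srebf2 at 28.0 ± 0.870, Stard4 at 17.1 ± 1.46 and Scap at 12.8 ± 1.15. Lengths of annotated transcripts may differ from those expressed in these cells.

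**Figure D2:**
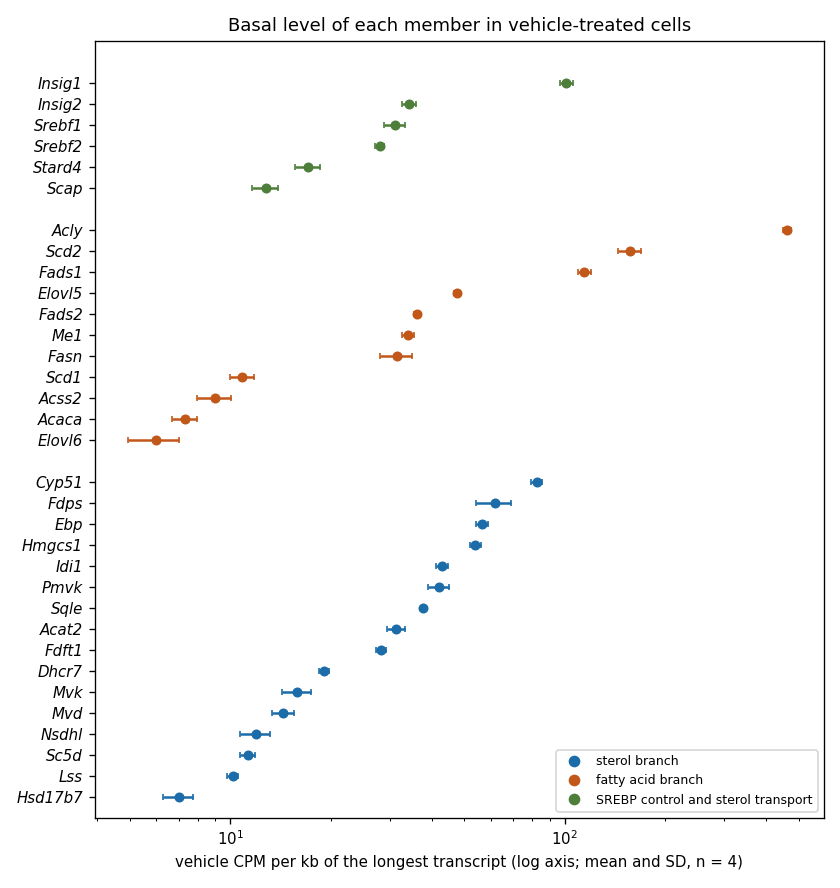
Vehicle level of each gene in CPM per kb of its longest annotated transcript (log x axis; point and bar, mean and SD over 4 libraries). Acly, at 461 CPM per kb, stands above all others and Elovl6, at 5.98, is lowest.

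Srebf2, on chromosome 15 (82147181 to 82205379, GRCm38), had the largest increase of the 33. Its level was 137, 139, 146 and 145 CPM in the 4 vehicle libraries and 192, 195 and 189.9 in the 3 IL1B libraries. Every IL1B library lay above every vehicle library, as in 12.1% of all genes tested. The rise was 1.35-fold (edgeR log2 fold change 0.44, SE 0.06, adjusted p = 1.4e-05). It passed in all 16 alternative analyses, with adjusted p up to 2.2e-04.

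Srebf1 did not pass. On chromosome 11 (60199089 to 60222581), it measured 135, 125, 146.5 and 128 CPM in vehicle and 113, 138 and 128 with IL1B, and the groups overlapped (edgeR log2 fold change -0.09, SE 0.07, adjusted p = 0.562). With both second libraries left out it was called lower (log2 fold change -0.19, edgeR adjusted p = 0.0368; over all alternatives 0.0368 to 0.957). Those libraries held the lowest vehicle and highest IL1B value of Srebf1, so leaving them out widens its difference by construction. The ratio of Srebf2 to Srebf1 counts, which needs no library scaling, was 1.07 ± 0.0698 in vehicle and 1.53 ± 0.148 with IL1B, with no overlap. The exact two-sided permutation test gave p = 0.0286, the smallest the 35 splits allow, and 0.0571 adjusted over the 2 ratios reported, which were chosen after the values were seen.

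The other control genes did not pass. Insig1, the sterol-induced retention protein and itself an SREBP target, was at 278, 272, 284 and 256 CPM in vehicle and 301, 302 and 283 with IL1B (edgeR log2 fold change 0.12, SE 0.06, adjusted p = 0.241). IL1B library 3 overlapped the vehicle range. Insig2 went from 92.2 ± 4.51 to 88.7 ± 3.88 CPM and Scap, the escort protein, from 54.0 ± 4.85 to 50.6 ± 2.56 (edgeR adjusted p = 0.707 and 0.575). Stard4, a cytosolic sterol carrier, went from 86.9 ± 7.43 to 99.5 ± 11.9 CPM (edgeR adjusted p = 0.168); it passed in 1 of 16 alternatives, with each library's trend over GC content and transcript length removed (adjusted p = 0.0497, range 0.0497 to 0.761). Of Scap's exon bases 13.2% lie opposite another annotated gene, and the sources used here do not give the strand setting of the counts.

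In the sterol branch 1 of 16 enzymes rose (6.25%, against 7.76% of all genes) and none fell (3.25% of all). The median log2 fold change was -0.0056, beside -0.0087 over all genes tested. Hmgcs1, on chromosome 13 (119690379 to 119708260), measured 194, 192, 180 and 183 CPM in vehicle and 218, 237 and 223 with IL1B. The groups did not overlap, and the rise was 1.21-fold (edgeR log2 fold change 0.27, SE 0.06, adjusted p = 0.0032). It passed in all 16 alternatives, with adjusted p up to 0.0181. Of its exon bases 12.1% lie opposite the annotated gene Gm48342.

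Enzymes between mevalonate and squalene gave small differences of both signs. Idi1, the isomerase that makes the second isoprenoid building block, was at 124 to 134 CPM in vehicle and 137 to 153 with IL1B, without overlap (edgeR log2 fold change 0.15, SE 0.06, adjusted p = 0.159). It passed in 1 of 16 alternatives, the one with GC and length trends removed (adjusted p = 0.0414, range 0.0414 to 0.455). Fdps, which makes farnesyl diphosphate, was at 172, 214, 174 and 169 CPM in vehicle and 174, 210 and 183 with IL1B (edgeR log2 fold change 0.05, SE 0.08, adjusted p = 0.767). The second library was the highest in each group, and 26.7% of Fdps exon bases overlap the annotated gene Gm43738 on the same strand. Mvk, Pmvk and Mvd, which convert mevalonate to isopentenyl diphosphate, had log2 fold changes of -0.07, 0.11 and -0.01 (edgeR adjusted p 0.548 to 0.971), and Fdft1, squalene synthase, -0.06 (0.652).

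From squalene onward no enzyme passed. Sqle, the epoxidase and a second control point, was at 166, 172, 166 and 171 CPM in vehicle and 158, 160 and 161 with IL1B (edgeR log2 fold change -0.08, SE 0.06, adjusted p = 0.446). Its groups did not overlap, but the difference is 1.06-fold. Cyp51 was at 326, 334, 328 and 307 CPM in vehicle and 306, 364 and 303 with IL1B; its log2 fold change was -0.00085 (edgeR adjusted p = 0.996), with a 95% interval of -0.14 to 0.14. Hsd17b7 was nearest to a fall, at 34.2, 29.0, 30.0 and 36.0 CPM in vehicle and 28.3, 24.9 and 27.2 with IL1B (edgeR log2 fold change -0.27, SE 0.10, adjusted p = 0.102). It passed only without the second vehicle library (adjusted p = 0.0356, range over alternatives 0.0356 to 0.290).

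The remaining enzymes Lss, Nsdhl, Ebp, Sc5d and Dhcr7, and the thiolase Acat2 at the head of the route, had log2 fold changes from -0.17 (Nsdhl) to 0.15 (Dhcr7) and edgeR adjusted p from 0.257 to 0.957. Acat2 shares 65.6% of its transcript at 95% identity or more with Acat3, and 18.3% of Fdft1's exon bases overlap Ctsb on the other strand, so their counts are uncertain.

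**Figure D3:**
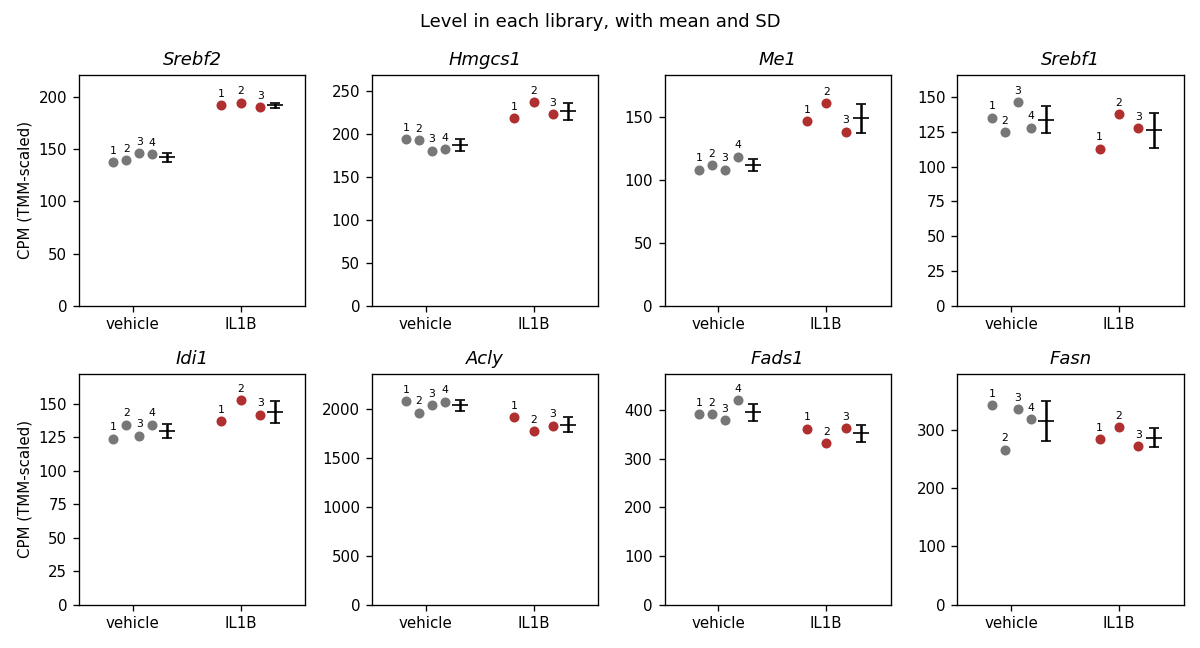
CPM in each library (numbers as in the count table) for 8 genes, vehicle in grey and IL1B in red, with mean and SD; each y axis starts at 0. IL1B libraries lie above all vehicle libraries for Srebf2, Hmgcs1, Me1 and Idi1 and below them for Acly and Fads1, and the groups overlap for Srebf1 and Fasn.

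In the fatty acid branch 1 of 11 enzymes rose (9.09%, against 7.76% of all genes), and the rest had small differences of 1 sign. Of the 11 enzymes 10 had a log2 fold change below 0, from -0.07 to -0.25, and the branch median was -0.14; over all genes tested 52.2% were below 0. None of the 10 passed with edgeR and TMM scaling, and 4 had an unadjusted p under 0.05 (9.62% of all genes were lower at that level). IL1B libraries lay below all vehicle libraries in 5 of the 11 (Acly, Acss2, Elovl6, Elovl5 and Fads1; 8.83% of all genes tested did so) and above them in 1 (12.1% of all). All 16 alternatives kept 10 of 11 below 0.

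Acly, on chromosome 11 (100476353 to 100528000), is the most abundant of the 33. It measured 2081, 1963, 2040 and 2078 CPM in vehicle and 1920, 1776 and 1833 with IL1B, without overlap. The difference was 1.11-fold (edgeR log2 fold change -0.15, SE 0.05, adjusted p = 0.0674), and it passed in 7 of 16 alternatives (adjusted p 0.0059 to 0.235). These included upper-quartile and total-count scaling, DESeq2 and limma-voom.

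Fads1, the desaturase that yields arachidonate, measured 392.0, 392.1, 380.3 and 420.4 CPM in vehicle and 363, 332 and 363 with IL1B (edgeR log2 fold change -0.17, SE 0.06, adjusted p = 0.0712). It passed in 5 of 16 alternatives (adjusted p 0.0151 to 0.246). Its neighbour Fads2, which acts earlier on the same fatty acids, went from 114 ± 2.02 to 108 ± 8.55 CPM (log2 fold change -0.07, edgeR adjusted p = 0.593). Elovl5, which elongates between them, went from 132 ± 2.29 to 120 ± 10.3 (log2 fold change -0.14, edgeR adjusted p = 0.196).

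Fasn, on chromosome 11 (120805846 to 120824547), was at 343, 267, 337 and 319 CPM in vehicle and 284, 305 and 272 with IL1B, and the groups overlapped through the second vehicle library (edgeR log2 fold change -0.14, SE 0.08, adjusted p = 0.294). Its longest transcript, of 10050 bases, is the longest of the 33, and the second vehicle library is the one whose levels fell with transcript length. Whether length bears on the Fasn values was not tested. The second libraries held the lowest vehicle and the highest IL1B value of Fasn, so leaving both out widens the difference by construction. With the GC and length trends removed Fasn was lower past the threshold (log2 fold change -0.16, edgeR adjusted p = 0.0335), as it was without the second vehicle library (-0.21, 0.0117) and with both second libraries left out (-0.26, 6.6e-05); over all alternatives the adjusted p ran up to 0.603.

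Acaca too had its lowest vehicle value in the second library, with 74.0, 61.1, 72.8 and 70.6 CPM in vehicle and 62.4, 66.2 and 61.9 with IL1B (edgeR log2 fold change -0.13, SE 0.08, adjusted p = 0.339). Its longest transcript has 9513 bases, and with the GC and length trends removed it did not pass (log2 fold change -0.12, edgeR adjusted p = 0.212). It was called lower with both second libraries left out (-0.22, adjusted p = 0.0308; range 0.0308 to 0.590), and shares 64.3% of its transcript with the annotated gene Gm5182, which has no row in the table. Scd2 was at 806, 789.8, 928 and 894 CPM in vehicle and 767, 817 and 779.5 with IL1B (edgeR log2 fold change -0.12, SE 0.06, adjusted p = 0.273), and was called lower in the same single setting (-0.18, adjusted p = 0.0056; range 0.0056 to 0.588). For Acaca and Scd2 too, the second libraries held the lowest vehicle and highest IL1B value, so that setting widens their differences by construction. Scd1 went from 52.5 ± 4.34 to 47.4 ± 1.96 CPM (edgeR log2 fold change -0.14, SE 0.08, adjusted p = 0.330). Elovl6 and Acss2, which activates acetate, had log2 fold changes of -0.25 and -0.17 (edgeR adjusted p = 0.187 and 0.323).

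Me1 was the exception. This enzyme, which turns malate to pyruvate and yields cytosolic NADPH, measured 108, 112, 108 and 119 CPM in vehicle and 147, 162 and 139 with IL1B. The groups did not overlap, and the rise was 1.33-fold (edgeR log2 fold change 0.42, SE 0.07, adjusted p = 1.5e-04). It passed in all 16 alternatives, with adjusted p up to 0.0013. Me1 lies on chromosome 9 (86581371 to 86695953) and shares 49.8% of its transcript with Gm7049 and 35.2% with Gm48795, neither of which has a row in the table, so reads from these copies could be counted with it. The ratio of Me1 to Fasn counts was 0.358 ± 0.0486 in vehicle and 0.519 ± 0.0098 with IL1B, with no overlap (exact two-sided permutation p = 0.0571, also adjusted over the 2 ratios). Both genes were picked after their opposite signs were seen, which the adjustment does not cover, so the ratio adds no separate support.

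Set side by side, the sterol median lay above the fatty acid median by 0.14 on the log2 scale, but library by library the groups overlapped. Taking in each library the median deviation of a branch from the vehicle mean, the fatty acid branch lay at -0.06 to 0.03 in vehicle and -0.15 to -0.12 with IL1B, without overlap. The sterol branch lay at -0.05 to 0.05 in vehicle and at -0.09, 0.14 and -0.07 in the IL1B libraries, so its second IL1B library stood above all others and the other IL1B libraries below all vehicle libraries. The sterol minus fatty acid difference was -0.06 to 0.10 in vehicle and 0.06 to 0.25 with IL1B (means 0.01 ± 0.07 and 0.13 ± 0.11, SD), so the means differed by more than 1 SD within either group while the ranges overlapped. The difference between the branch medians of log2 fold change, 0.14 with all 7 libraries, was 0.08 without the second IL1B library. With both second libraries left out it was also 0.08, and with any other single library left out 0.09 to 0.19. The sterol median itself lay above 0, at 0.0068 to 0.05, with vehicle library 2, IL1B library 1 or IL1B library 3 left out.

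**Figure D4:**
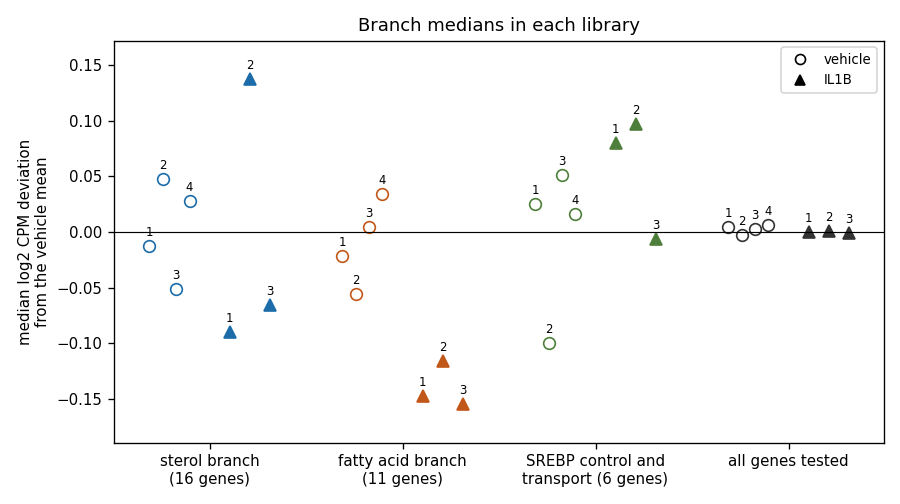
Median over each gene set of the log2 CPM deviation from the vehicle mean, 1 point per library (open circles vehicle, triangles IL1B, numbers as in the count table). The 3 IL1B libraries lie below all vehicle libraries in the fatty acid branch (-0.15 to -0.12), while in the sterol branch the second IL1B library lies at 0.14.

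Summed over its 11 genes, the fatty acid branch took 3948 to 4273 CPM in vehicle and 3777 to 3895 with IL1B, a difference of -8.14% in the mean (4155 ± 145 and 3817 ± 67.4), with Acly the most abundant member. The sum over the sterol branch was 1616 ± 50.4 and 1654 ± 102 CPM, within the spread. These sums and medians are descriptions and carry no test.

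Around the 33 genes, 71 others of sterol and lipid metabolism were followed, of which 63 passed the filter; 7 rose (11.1%, against 7.76% of all genes) and 1 fell (1.59%, against 3.25%). The 1 that fell was Mid1ip1, which activates the enzyme made from Acaca. It went from 166 ± 5.30 to 137 ± 2.75 CPM (edgeR log2 fold change -0.28, SE 0.06, adjusted p = 0.0024), and 25.5% of its exon bases lie opposite Gm14493. The count that fell was 5 without the second vehicle library or without IL1B library 1, and 4 with both second libraries left out. Over all genes tested 589, 387 and 676 fell in these settings, against 406 with all 7 libraries.

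In SREBP processing and sterol-regulated degradation 1 of 10 genes rose (10%, against 7.76% of all genes) and none fell (3.25% of all). The riser was Rnf145, a sterol-responsive ubiquitin ligase, from 68.9 ± 3.04 to 92.6 ± 2.76 CPM (edgeR log2 fold change 0.43, SE 0.07, adjusted p = 1.4e-04). The proteases that cleave SREBPs, Mbtps1 and Mbtps2, had log2 fold changes of 0.05 and -0.04. None of 10 uptake, transport and esterification genes passed with edgeR, and at an unadjusted p under 0.05 there were 3 lower and 0 higher, beside 9.62% and 13.0% of all genes. None of the 6 LXR and efflux genes tested passed with edgeR, with 1 higher and 0 lower at an unadjusted p under 0.05, beside the same shares of all genes. That gene was Mylip, from 6.06 ± 0.458 to 8.83 ± 1.85 CPM (edgeR log2 fold change 0.54, SE 0.18, adjusted p = 0.0523). IL1B libraries lay above all vehicle libraries in 2 of the 6 (33.3%, against 12.1% of all genes) and below in 0 (8.83% of all).

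Of 13 genes tested that activate fatty acids or build glycerolipids, 5 rose (38.5%, against 7.76% of all genes) and none fell (3.25% of all). The list was chosen with earlier results of these data known, so its share is a description. Pnpla3, a lipid droplet protein, was at 2.63, 3.76, 2.82 and 2.79 CPM in vehicle and 16.8, 18.9 and 21.9 with IL1B, a 6.35-fold rise (edgeR log2 fold change 2.67, SE 0.17, adjusted p = 6.1e-10). Lpin1 and Lpin2, phosphatases that make diacylglycerol, rose 1.49-fold (46.0 ± 3.40 to 68.1 ± 2.62 CPM) and 1.28-fold (38.0 ± 1.89 to 48.5 ± 4.53). Acsl4, which activates arachidonate, rose 1.19-fold, from 124 ± 8.74 to 149 ± 0.340 CPM. Pnpla2 is a triglyceride lipase and so acts against the list's name; it rose 1.35-fold, from 25.8 ± 2.61 to 34.7 ± 1.78 CPM. The edgeR adjusted p of these last 4 ran from 2.4e-05 to 0.0113, and each passed in all 16 alternatives.

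Among 19 other synthesis, elongation and desaturation enzymes 1 rose (5.26%, against 7.76% of all genes) and 1, Mid1ip1, fell (5.26%, against 3.25%). Hacd2, a dehydratase of the elongation cycle listed under its older symbol Ptplb, went from 23.9 ± 2.18 to 37.9 ± 1.61 CPM (edgeR log2 fold change 0.66, SE 0.09, adjusted p = 3.6e-05). It shares 21.0% of its transcript with Gm7908, which has no row in the table.

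**Figure D5:**
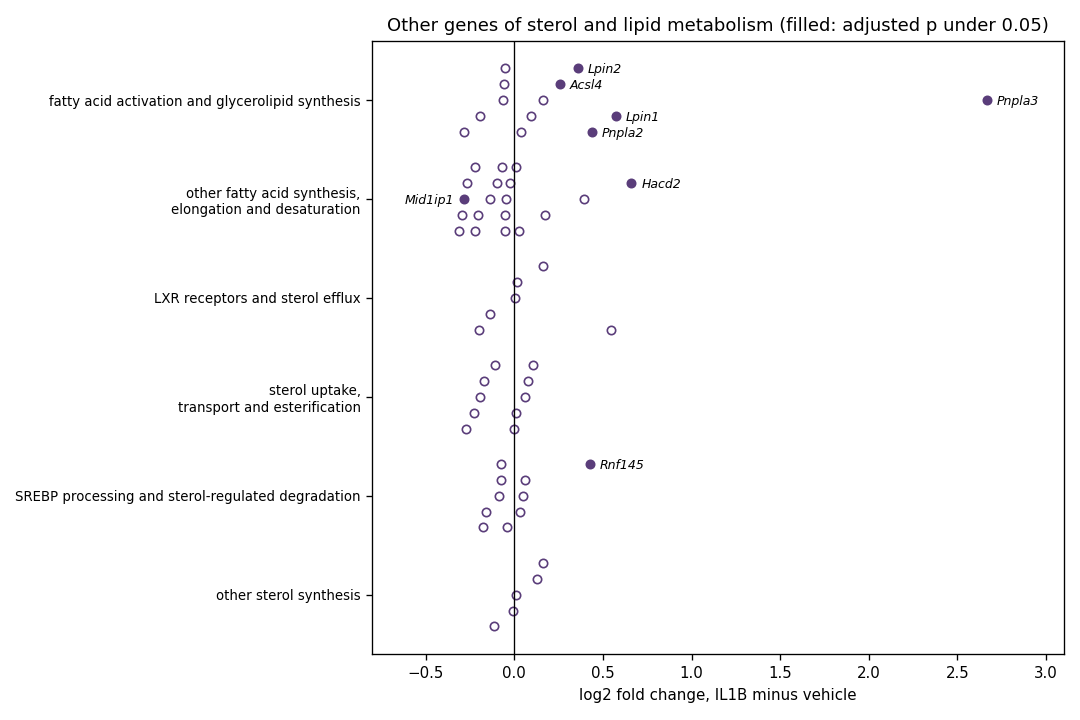
Log2 fold change (IL1B minus vehicle, x axis) of the 63 tested genes outside the 33, by list; filled and named points passed the adjusted p of 0.05. Pnpla3 lies at 2.67, apart from all others, and Mid1ip1 is the filled point below 0.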

How the data were processed

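RNA of 7 libraries (4 vehicle, 3 IL1B) was analysed from 1 table of raw counts per gene symbol that the authors deposited, with 23329 symbols. Per the submitters' processing notes the build was mm10 and the tools include STAR, RSEM and DESeq2, without roles; the sources used here do not give the counter, annotation, strand setting or handling of multiply matching reads. IL1B columns are numbered 1, 2 and 3 and the sample titles 1, 3 and 4, so those columns were assigned to the group only and keep the table's numbers. Nothing in the labels ties replicates to separate cultures, so a p-value here reflects the spread among these libraries, possibly a technical one.

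Counts were tested in R 4.3.3 with edgeR 4.0.16 (TMM, filterByExpr, quasi-likelihood F test, no covariate, all 7 libraries; 12480 genes; adjusted p threshold 0.05); standard errors are the log2 fold change over the root of F. The procedure was tested on simulated data. Alternatives were 3 other scalings, 2 other low-count filters, DESeq2 1.42.0, limma-voom (limma 3.58.1), each library left out, the second library of both groups left out, and removal by splines of GC and length trends in each library (98.6% of tested genes had both). Transcript copies were sought with blastn 2.17.0 at 95% identity, and coordinates and lengths are GENCODE's for GRCm38, the assembly of mm10. Total counts of 5335607 to 7513934 per library set the precision; 3 counts equal 0.399 to 0.562 CPM of the total.

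All 142 list symbols were found, 5 under older symbols. Members and lists were chosen with earlier results of these data known. Named with full values were members past the threshold, the 3 nearest to it, 11 more fixed by name, and other pathway genes past the threshold; some listed genes are not reported here. Promoters are RefSeq's (GRCm38.p6).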

Additional observations from a re-analysis of the deposited data

Results flagged for a closer look

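The 4 vehicle values of each of the 33 genes, the 8 other pathway genes named by rule, the 3 gene sets and the 2 ratios (46 groups of values) were screened for a single distant value with Dixon's critical values, which chance passes in about 1 in 20 groups (2.3 of 46). It was passed in 4 groups, all of them single genes. Vehicle library 2 was the distant value for Fdps (214.1 CPM, others 168.6 to 174.2), Mid1ip1 (174.3 CPM, others 162.8 to 164.3) and Pnpla3 (3.758 CPM, others 2.633 to 2.821). Vehicle library 3 was the distant value for Sc5d (49.89 CPM, others 54.89 to 55.43).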

How the results depend on the processing

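The rises of Srebf2, Me1 and Hmgcs1 passed in all 16 alternatives, and the sign of every fatty acid branch member held in each. No paired analysis was possible because the IL1B columns do not carry the replicate numbers of the titles. The count of members that fell, 0 with edgeR, was 2 with upper-quartile scaling, 2 with total-count scaling, 1 with DESeq2, 1 with limma-voom, 3 with GC and length trends removed and 6 without both second libraries, and ran from 0 to 4 over single libraries left out. Members that rose numbered 5 with GC and length trends removed, where 1169 of all 12480 genes rose, against 968 with those trends kept. Other pathway genes that fell numbered 3 with upper-quartile scaling, 3 with total-count scaling, 5 with no low-count filter, 4 without both second libraries, 5 with GC and length trends removed, and 1 to 5 with single libraries left out. All genes that fell numbered 406 of 12480 with edgeR and TMM scaling, 521 with upper-quartile scaling and 556 with total-count scaling. They numbered 529 of 19020 with no low-count filter, 600 with GC and length trends removed and 386 with limma-voom. The number was 260 of 13918 with DESeq2, 676 of 12508 without both second libraries and 252 to 589 with single libraries left out. The fatty acid median was -0.18 with total-count scaling, which moved the median of all genes to -0.04; rises were then 60.3% of all calls and with upper-quartile scaling 62.6%, against 70.5% with TMM. Cyp51 changed sign near 0 (0.0037 with GC and length trends removed, -0.0913 to 0.0462 with single libraries left out), as did Fdps (-0.0275 to 0.144). Ebp kept its sign in 10 of 16 alternatives, Mvd and Lss in 12, and Mvk and Pmvk in 15. The ratio of Srebf2 to Srebf1 stayed 0.45 to 0.58 higher on the log2 scale with single libraries left out, a check chosen after seeing the data. The cause of these shifts was not tested. Standard errors on the log2 scale were 0.10 for Hsd17b7 and Acss2 and 0.11 for Elovl6, which have few counts, and 0.05 for Acly, which has many; what counting and the spread between libraries each add was not tested.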
